A study of Mus musculus with 5 samples.

Results

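Actin and the proteins that assemble it into filaments are represented here by 9 genes: the actins Actb and Actg1, the monomer-binding proteins Pfn1, Cfl1 and Tmsb4x, and the Arp2/3 subunits Arpc1b, Arpc2, Arpc3 and Arpc5. They were chosen by name, with earlier results on their mRNA level, peaks and deletion sites known, so their values are given as a description with no test. Of the 9 genes, 8 appear in the list of 18349 genes with an mRNA level. On their own strand and within their annotated span they hold 60 of 90337 PABPC1 peaks and 61 of 11907 deletion sites. The study used MEL cells, an erythroleukemia line of the mouse that resembles early red cell precursors, and the labels name no treatment, genotype or clone. File names in the labels mark both kinds of data as day 0, without saying what the day counts from. In 3 samples, RNA cross-linked by ultraviolet light (400 mJ/cm2) to PABPC1, the chief binder of poly(A) tails in the cytoplasm, was trimmed for 10 min with RNase and sequenced (CLIP-seq). In the other 2 samples mRNA selected by its poly(A) tail was sequenced. The authors' lists pool the replicates of each kind, so every value below is 1 number a gene or site without replicate error, and no control precipitation was analysed here.

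Actin monomers polymerise into the filaments that give a cell its shape and its force for movement and division. Profilin delivers monomers to growing filament ends, cofilin severs old filaments and returns their monomers, and beta-thymosin holds monomers in reserve. The Arp2/3 complex starts new filaments as branches on existing ones, and in the erythrocyte lineage short actin filaments tie the membrane skeleton together.

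The mRNA level, as reads scaled by gene length and library size (RPKM), put 4 of the genes among the most abundant protein-coding mRNAs. Cfl1 stood at 792 RPKM and Actb at 785 RPKM, ranks 51 and 52 among protein-coding genes. Pfn1 followed at 503 RPKM (rank 101) and Arpc2 at 400 RPKM (rank 156). Among the remaining Arp2/3 subunits, Arpc1b reached 234 RPKM, Arpc3 147 RPKM and Arpc5 75.6 RPKM. Actg1, the second cytoplasmic actin, stood at 6.64 RPKM, rank 8014, and Tmsb4x has no entry in the list, which leaves out genes at 0. The Actb value rests on 74107 reads and the Actg1 value on 622 reads, recovered from the RPKM.

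PABPC1 signal was summed over the peaks that lie in a gene's exons, with each peak counted at its height in tags (sequenced RNA fragments). Actb had the most, 4725 tags in 10 peaks, rank 12 among protein-coding genes. Arpc2 came next with 3312 tags in 10 peaks, rank 29, ahead of Cfl1 with 1595 tags in 4 peaks although its mRNA level was lower. Arpc1b held 1555 tags in 11 peaks and Arpc3 1301 tags in 7 peaks. The order of PABPC1 signal therefore departed from the order of mRNA level, with Cfl1 and Pfn1 lower in the first than in the second. Pfn1 held 1068 tags in 4 peaks, Arpc5 417 tags in 11 peaks and Actg1 8 tags in 1 peak. Of the 9 genes, 8 held an exonic peak, where 49.4% of annotated protein-coding genes did. Among those of RPKM 1 or more the counts were 8 of 8 and 96.6%.

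**Figure D1:**
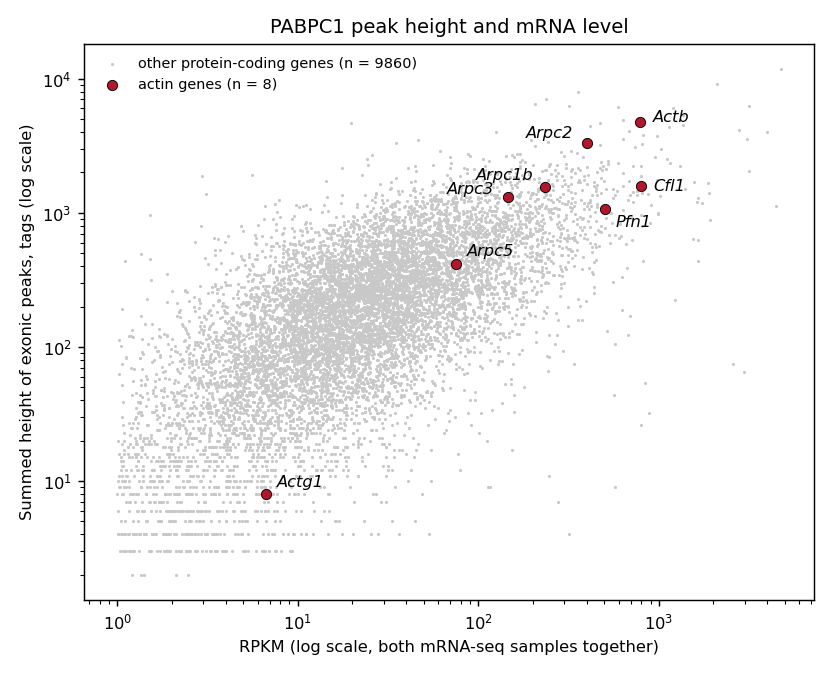
Summed height of exonic PABPC1 peaks in tags against mRNA level in RPKM, both on log scales, for 8 actin genes (red) and the other protein-coding genes of RPKM 1 or more with a peak (grey). Actb and Arpc2 lie in the upper part of the cloud at their mRNA level, while Cfl1 and Pfn1 lie lower at a similar mRNA level and Actg1 is low on both axes.

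Set against mRNA level on the scale log2((summed height + 1)/(RPKM + 1)), Arpc3, Arpc2 and Arpc1b had the highest values of the 8 genes with a level and a peak. The log2 ratio was 3.14 for Arpc3, 3.05 for Arpc2, 2.73 for Arpc1b and 2.45 for Arpc5. It was 2.59 for Actb, above that of Arpc5, and 1.08 for Pfn1, 1.01 for Cfl1 and 0.24 for Actg1. Subunits outside the 9 genes ranged widely, from 1.01 for Arpc1a to 4.32 for Arpc5l. The median over the 8 genes was 2.52, against 2.72 over the 10731 genes that had an exonic peak and RPKM 1 or more. Arpc3, Arpc2 and Arpc1b lay above that all-gene median, 3 of 8 where 50% of all genes do so by definition. The ratio was lower among abundant mRNAs. Over 1124 protein-coding genes of RPKM 100 or more the median was 1.73, and 17.2% of them exceeded the all-gene median, which 3 of the 6 actin genes of that level did. Summed height is not divided by length, as RPKM is. Per kilobase of exon the actin median was 1.30 and the all-gene median 1.16, which turns their order. On that scale Arpc3 (2.91) and Arpc2 (2.20) were still the highest, and Arpc1b (1.09) fell below Actb (1.65) and Arpc5 (1.51).

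Deletion sites are single bases at which the authors counted tags with a missing base. Reverse transcriptase can leave such a gap when it passes a cross-linked base, but whether each site marks one was not tested. Deletion sites were found in 6 of the 9 genes: 21 sites in Actb, 18 in Arpc2, 8 in Pfn1, 6 in Arpc1b, 5 in Cfl1 and 3 in Arpc3. No site was listed in Arpc5, Actg1 or Tmsb4x. By number of sites Actb ranked 3 and Arpc2 ranked 6 among protein-coding genes. The genes of RPKM 100 or more held a site in 6 of 6 cases, where 78.0% of protein-coding genes of that level did. Among genes of RPKM 1 or more the counts were 6 of 8 and 37.0%. At RPKM 100 or more, 6 of 6 held 3 or more sites, where 43.3% did. That limit of 3 equals the lowest count among these 6 genes, so no support comes from it. All 61 sites lay inside a peak of the same gene, and the tags covering each site never exceeded that peak's height.

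Actb encodes beta-actin (ENSMUSG00000029580, chr5:142903115-142906754 on mm10, minus strand). Its PABPC1 signal came from 2 tall peaks at the end of the transcript. The taller, 2374 tags at chr5:142903683-142903942, spans the stop codon from 143 nt before to 115 nt after its last base. Its midpoint falls in the coding sequence (CDS), where it ranks 4 of 31717 peaks by height. The other, 1931 tags at chr5:142903113-142903428, covers the last part of the 3' UTR up to the annotated end and ranks 48 of 41523 3' UTR peaks. The remaining peaks were low, from 13 to 92 tags. A shorter annotated transcript ends 297 nt after the stop codon, and no Actb peak covers that end.

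Most Actb deletions fell at 1 place in the 3' UTR, a run of 12 A that begins 60 nt after the stop codon. The 5 sites from 142903726 to 142903739 carried 972 of the gene's 1257 deletions, 77.3%. At the base with the most, 142903727, 644 of 2329 tags were deleted, 27.7% (95% Wilson interval 25.9 to 29.5; this and later intervals cover counting error only, since tags are not known to be independent molecules). The next base, 142903728, had 234 deletions in 2314 tags, 10.1%, and the bases at 142903729 and 142903726 had 2.68% and 0.685%. A deletion within a run of identical bases leaves the same read whichever base was lost, so the base within the run cannot be told apart. The run lies 612 nt before the end of the principal transcript and 226 nt before that of the shorter one. The window around it is shown because it holds most of the deletions, followed by the run of sites with the next most, 62 deletions at 3 bases from 142903370 to 142903374. Both are on the minus strand of mm10, at chr5:142903713-142903742 and chr5:142903360-142903389, written 5′ to 3′ with every listed deletion site in the window in capitals.
Actb, A run: gcaGaaaaaaaaaAAATaagagacaacatt
Actb, next run: ccatgccctgagtccACccCggggaaggtg
The second window has no A run and no AATAAA. Its 3 sites were deleted in 1.71% to 2.78% of 935 to 1008 tags. Near the Actb end, the poly(A) signal AATAAA lay within 20 nt of 1 site only, 142903145, 30 nt before the end, with 24 deletions in 946 tags. The taller peak held 9 sites, among them the run with 972 deletions, and the other held 10 sites of 11 to 38 deletions each.

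**Figure D2:**
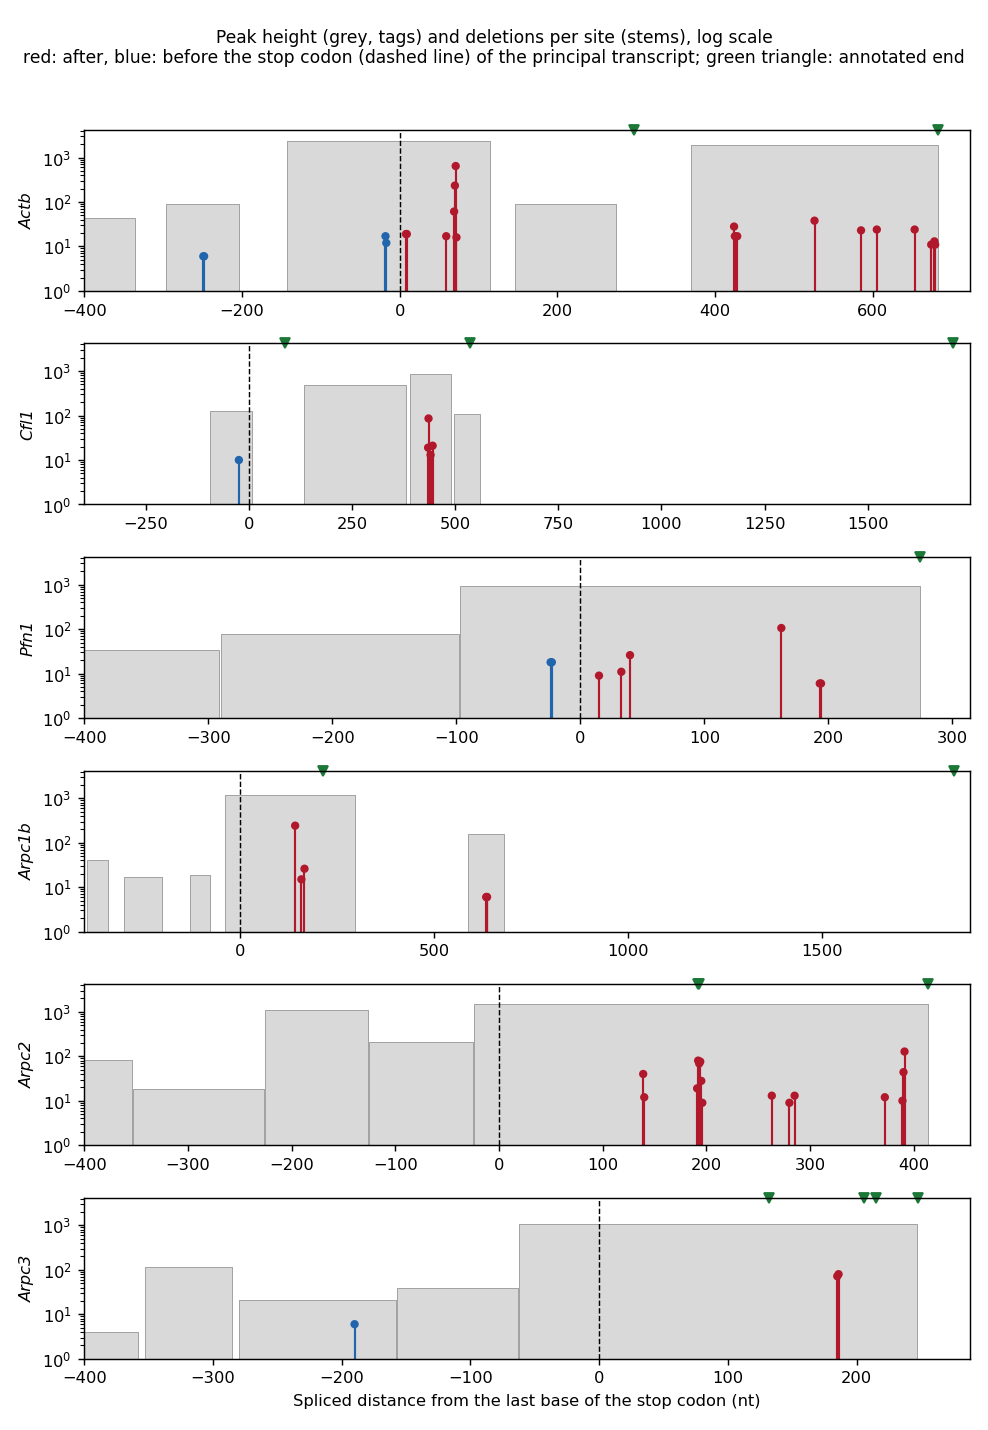
Exonic peaks (grey blocks, height in tags) and deletion sites (stems, number of deletions) of 6 actin genes on a log scale, along the spliced principal transcript in nt from the last base of the stop codon, upstream bases beyond the left border not drawn; green triangles mark annotated transcript ends. Actb shows its 644-deletion stem 71 nt after the stop codon, Pfn1 and Arpc1b show 1 tall stem each, and Arpc2 shows 2 groups of stems in its 3' UTR.

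Actg1, which encodes gamma-actin (ENSMUSG00000062825, chr11:120345690-120348542, minus strand), held 1 peak of 8 tags at the end of its 3' UTR and no deletion site. Near-identical copies bear on these values. Of the 30-base words in its transcripts, 40.4% also occur in transcripts of other genes, 22 pseudogenes among them. The pseudogenes Gm12715 and Gm8399 were listed at 82.6 RPKM and 39.0 RPKM, above Actg1 itself, and neither held a peak. The sources used here do not say how reads that match several genes were counted, so the level of Actg1 is uncertain. Actb shared 24.5% of its words, the largest part with Lrrc58 (11.1 RPKM), but none of those that cover the main deletion run. Of the words over its 2 tall peaks 33.0% and 35.4% were shared, and at the 3 sites of the next run up to 53.3%, so the origin of tags in that second window is less certain. The median protein-coding gene of RPKM 1 or more shared 0.494%. The muscle actins Acta1, Acta2, Actc1 and Actg2 were listed at no more than 0.257 RPKM and held no peak.

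Pfn1 encodes profilin (ENSMUSG00000018293, chr11:70651850-70654644, minus strand). Of its 1068 tags, 932 lay in 1 peak at chr11:70651843-70652223, from 97 nt before the end of the stop codon to the annotated end 274 nt after it. All 8 Pfn1 sites lay in that peak. At 70651962, 106 of 146 tags were deleted, 72.6% (64.9 to 79.2), the highest share among the actin genes. Only 9 of 6198 sites with at least 100 tags in other protein-coding genes had a share as high. This site held 53.0% of the gene's deletions, while the other 7 had 6 to 26 deletions each, in 2.13% to 15.8% of their tags. The 2 Pfn1 windows, chr11:70651948-70651977 and chr11:70652070-70652099, are shown because they are poor in A and rich in C and T.
Pfn1, top site: acagacacctcccccTacccataccccctc
Pfn1, next run: gttcccttTggctttTgcacccccttcttt
Across the 8 sites, C and T made up a median of 64.6% of the 41 bases around the site and A 12.2%. None had the hexamer ATATAA, the poly(A) signal AATAAA or the hexamer AAAAAA within 20 nt.

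Cfl1 encodes cofilin (ENSMUSG00000056201, chr19:5490455-5495201, plus strand). Its 4 peaks, of 863, 497, 127 and 108 tags, all lay within 561 nt of the stop codon, although the principal transcript runs 1708 nt beyond it. A shorter annotated transcript ends at 536 nt. The tallest peak, chr19:5493884-5493982, held 4 sites with 139 deletions, 93.3% of the gene's, and 86 of 794 tags (10.8%) were deleted at 5493928. These sites lie 91 to 102 nt before the end of the shorter transcript. The remaining site, 5493468 with 10 deletions in 117 tags, is in the 3' UTR of another short transcript and in the CDS of the principal one. Both windows, chr19:5493913-5493942 and chr19:5493453-5493482, are shown because the first holds the 4 sites in a stretch of C and T.
Cfl1, main run: cccagctggctgccCTccccTttccTttga
Cfl1, remaining site: gtggcagcgccgtcaTttccctggagggca
C and T made up a median of 75.6% of the bases around Cfl1 sites, and no site had any of the 3 hexamers. The windows of the 4 sites of the main run overlap, so that median mostly describes 1 place. At the remaining site the value was 51.2%. Cfl1 shared 13.6% of its 30-base words with other genes. The pseudogene Gm6180 was listed at 1680 RPKM, above Cfl1, with 1 peak of 9 tags, so the division of reads between this pair is uncertain.

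Tmsb4x encodes thymosin beta 4, a monomer-storing peptide (ENSMUSG00000049775, chrX:167207093-167209315, minus strand). It has no RPKM entry, no peak and no deletion site, and it shares none of its 30-base words with another annotated gene. Its relative Tmsb10 had an RPKM entry, with 79 tags in 2 peaks and no site. Among other monomer-binding relatives, Dstn (destrin) stood at 67.6 RPKM, Cfl2 at 7.23 RPKM and Pfn2 at 3.98 RPKM.

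The Arp2/3 subunits held 27 of the 61 sites, 18 of them in Arpc2, and 6585 tags of the 13981 on all 9 genes. Arpc2 (ENSMUSG00000006304, chr1:74236084-74268209, plus strand) contributes to the core that holds the complex together. Its tallest peak, 1493 tags at chr1:74267769-74268216, covers the whole 3' UTR and held 15 of its 18 sites. The sites formed 2 main groups. One, at 74267986 to 74267991, carried 281 deletions (48.2% of the gene's) at the start of a run of 16 A, where 2 shorter annotated transcripts end, at 74267987 and 74267988. The other, at 74268184 to 74268186, carried 182 deletions (31.2%) beside AATAAA, 23 to 25 nt before the principal end. The share deleted was higher at the first group, 27.0% of 296 tags at its top base (22.3 to 32.4), than at the second, 8.87% of 1443 tags (7.51 to 10.4). The windows, chr1:74267972-74268001 and chr1:74268171-74268200, show the A run and the poly(A) signal.
Arpc2, A run: gatagttcctaagaATTAAAaaaaaaaaaa
Arpc2, near the end: acggttggggtcaTTAataaagaaaatctt

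Arpc2 also had a tall peak in its coding sequence, 1107 tags at chr1:74263713-74263845, over bases 126 to 226 nt before the end of the stop codon and reaching past the exon's borders. It held no deletion site. Among protein-coding genes 19 CDS peaks were at least this tall, and this was the 1 without a site. Its 30-base words occur in no other gene. Of the actin CDS peaks of 100 tags or more, 2 of 6 held a site (33.3%), against 35.5% of 944 such peaks in other protein-coding genes. In 3' UTRs the counts were 8 of 11 (72.7%) and 55.1% of 5666.

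Arpc1b (ENSMUSG00000029622, chr5:145114215-145130705, plus strand), a propeller-shaped subunit that binds nucleation promoters, had its tallest peak of 1209 tags at chr5:145127816-145128157, around the stop codon and the first 298 nt of a 3' UTR of 1840 nt. At 145128002, 242 of 1038 tags were deleted, 23.3% (20.8 to 26.0), which is 80.4% of the gene's deletions. That base lies 71 nt before the end of a shorter annotated transcript, and 1697 nt before that of the principal one. Arpc1b has the longest A run of the 9 genes, 26 A from 200 nt after the stop codon and across the shorter end, and no site lay within 20 nt of it. A second 3' UTR peak of 157 tags, 589 to 680 nt after the stop codon, held 3 adjoining sites of 6 deletions each. Arpc1b shared 13.7% of its words, mainly with the pseudogene Gm5637 (219 RPKM, 62 tags in 3 peaks). The main sites shared none. The windows at chr5:145127987-145128016 and chr5:145128011-145128040 hold the 3 sites of the tallest peak.
Arpc1b, top site: gaggggaactgcctaTttaacaaaatgtgc
Arpc1b, next run: atgtgccTtttaaagAaatactctttattg

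Arpc3 (ENSMUSG00000029465, chr5:122391878-122414184, plus strand) had 84.2% of its signal in 1 peak of 1095 tags at chr5:122405865-122406178, from 62 nt before the end of the stop codon to 247 nt after it. Its 2 main sites adjoin, with 72 deletions in 674 tags (10.7%) at 122406116 and 80 in 769 tags (10.4%) at 122406117. They lie 20 to 21 nt before a shorter annotated end and 62 to 63 nt before the principal end. This window, chr5:122406102-122406131, is the only 1 of the actin sites with ATATAA, which here overlaps AATAAA.
Arpc3, main run: taagctggtacttaATatataataaatgtc
Arpc5 (ENSMUSG00000008475, chr1:152766542-152775597, plus strand), which encodes the smallest subunit, had its signal spread over 11 peaks, 8 of them in a 3' UTR of 1275 nt. The tallest reached 136 tags, at chr1:152775434-152775593 beside the annotated end, and no site was listed. Of the subunits outside the 9 genes, Actr2 stood at 155 RPKM, Arpc1a at 141 RPKM, Actr3 at 99.4 RPKM and Arpc4 at 96.4 RPKM. With Arpc5l they held 6 sites, and Arpc4 had the most signal, 1582 tags.

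By transcript region, 63.5% of the summed height on the actin genes lay in 3' UTRs (8877 of 13981 tags), 35.9% in CDS and 0.601% in 5' UTRs. In the other protein-coding genes of RPKM 100 or more the shares were 69.4%, 28.3% and 2.34%. The lowest 3' UTR shares were those of Actb and Arpc2, 42.8% and 45.1%. The Actb value turns on its peak of 2374 tags over the stop codon, which the midpoint places in the CDS by 14 nt and in which 7 of 9 sites lie in the 3' UTR. With peaks over the stop codon counted as 3' UTR, a choice made after seeing the data, Actb had 93.1% and the actin genes 80.6%. The other genes had 78.2% by the same rule, so the actin share was then the higher one. That order rests on Actb, since without it the actin share by this rule was 74.3%, below the other genes. Cfl1 had all 4 exonic peaks in 3' UTR, Pfn1 89.5% of its height, Arpc1b 87.8%, Arpc3 84.2% and Arpc5 81.8%. The Cfl1 peak of 127 tags counts as 3' UTR by a short transcript, while its midpoint lies in the CDS of the principal one. A Pfn1 peak of 24 tags likewise counts as 3' UTR by another transcript and lies in an intron of the principal one. With peaks placed by midpoint, the actin share without Actb was 74.0%, above the 69.4% of the other genes, and without Arpc2 it was 69.2%. A 5' UTR peak was present in 4 of the 6 genes of RPKM 100 or more, at 32 tags in Actb, 23 in Arpc2, 17 in Arpc3 and 12 in Arpc1b. Among all protein-coding genes of that level 30.8% had one. The midpoint of the Arpc2 peak lies in an intron of the principal transcript and is 5' UTR by another transcript. Deletion sites lay in 3' UTRs in 51 of 61 cases, 83.6% (72.4 to 90.8), against 87.3% in other genes of that level and 37.3% for sites spread evenly over the exons of the same genes.

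**Figure D3:**
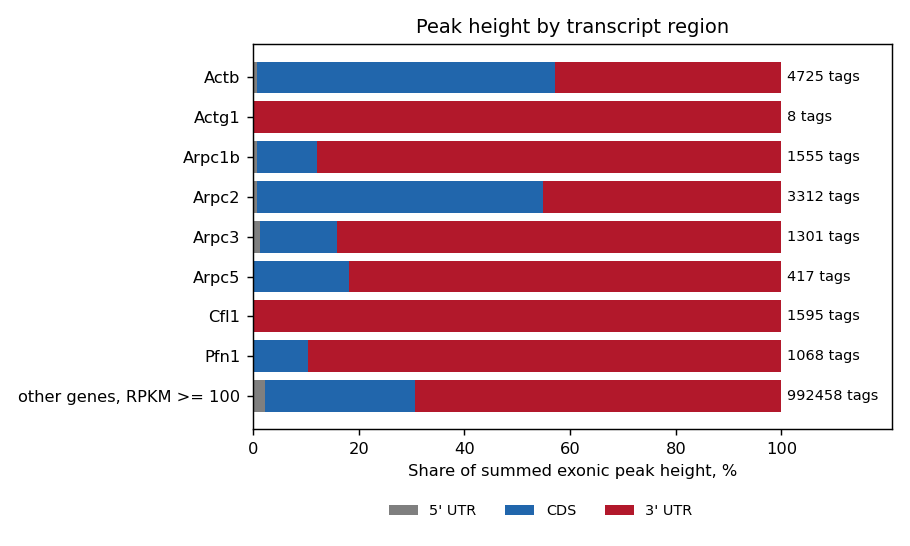
Share of the summed exonic peak height in 5' UTR (grey), CDS (blue) and 3' UTR (red) for 8 actin genes and, in the lowest bar, the other protein-coding genes of RPKM 100 or more, with the total in tags at the right. Peaks are placed by midpoint, 3' UTR first where transcripts differ. The Cfl1 bar thus includes a peak of 127 tags whose midpoint is CDS in the principal transcript. The CDS part is the largest in Actb, where a peak of 2374 tags over the stop codon counts as CDS, and in Arpc2, and the Actg1 bar rests on 8 tags.

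The actin sites had ATATAA or a poly(A) signal nearby less often than sites of other abundant mRNAs, and AAAAAA more often. Any of the hexamers ATATAA, the poly(A) signal AATAAA and the A run AAAAAA, searched on the transcript strand alone with overlaps allowed, lay within 20 nt of 17 of 61 sites, 27.9% (18.2 to 40.2), against 42.9% of 3413 sites in other protein-coding genes of RPKM 100 or more. Over all 3' UTR positions of the 6 genes with sites the share was 9.89%. That value leaves out the CDS, where 10 of the 61 sites lie, so these shares cover different regions. The hexamers were chosen with earlier results of these data known, so no support comes from their excess at sites over positions. AATAAA lay beside 9.84% of actin sites and 30.6% of the others, and ATATAA beside 3.28% and 8.15%. AAAAAA went the other way, with 18.0% and 8.67%, and all 11 such sites are those of the A runs of Actb and Arpc2. A poly(A) signal, AATAAA or ATTAAA, lay within 50 nt of 16 of 51 3' UTR sites, 31.4% (20.3 to 45.0), against 54.6%. With neighbouring sites within 10 nt joined into 30 runs, the hexamer share was 16.7% against 38.8%. Sites of a gene adjoin and overlap in sequence, so these intervals are too narrow as a measure of how such genes vary.

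The distance to transcript ends was close to that of other genes. Of the 51 sites in 3' UTRs, 24 lay within 100 nt of an annotated end, 47.1% (34.1 to 60.5), against 47.9% in other genes of RPKM 100 or more. The deleted base was A or T at 49 of 61 sites, 80.3% (68.7 to 88.4), against 90.6%. Actb accounted for most C and G deletions, with 13 of its 21 sites at A or T against 36 of 40 (90.0%) in the other 5 genes. The actin 3' UTR sites were covered by more tags than those of all other protein-coding genes, a median of 448 against 147, and the median share deleted was 4.76% against 10.8%. More tags let a site be listed at a lower share, and the part of this in the difference was not tested.

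**Figure D4:**
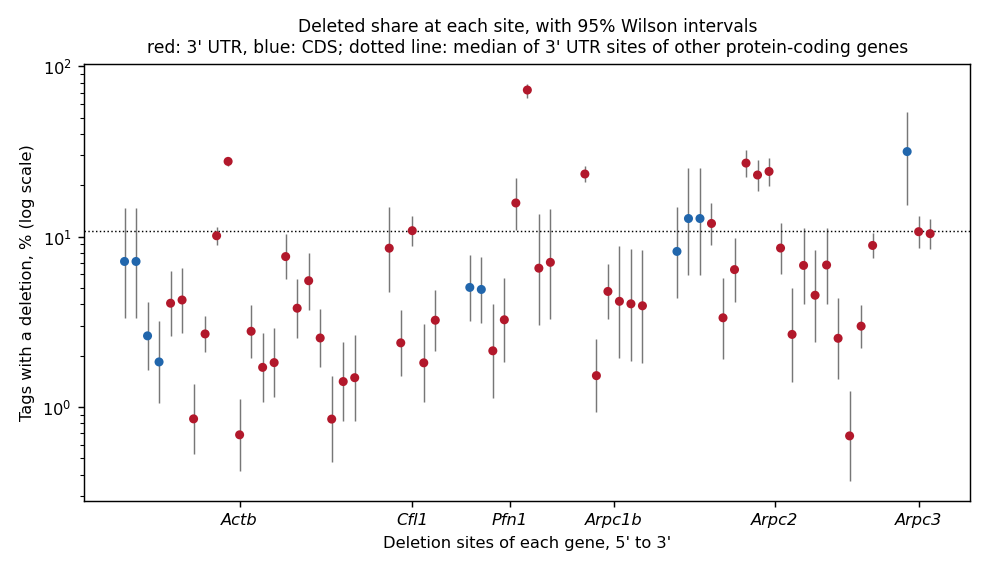
Percent of covering tags with a deletion at each of the 61 sites on a log scale, with 95% Wilson intervals, in transcript order within each gene (red for 3' UTR, blue for CDS); the dotted line is the median of 3' UTR sites in other protein-coding genes, 10.8%. The Pfn1 site at 72.6% is highest, followed by a CDS site of Arpc3 at 31.6% with a wide interval and by the sites at the A runs of Actb and Arpc2.

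Long A runs in 3' UTRs were counted with a limit of 10 A, set after the Actb value was seen. Actb, Arpc1b and Arpc2 have such a run, 3 of the 6 genes of RPKM 100 or more, where 7.91% of 1125 protein-coding genes of that level do. Of the 115 such runs in those genes, 40 (34.8%) had a deletion site within 20 nt. The runs of Actb and Arpc2 belong to that group, with 5 and 6 sites, and that of Arpc1b does not.

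The wider actin pathway was read from a list of 79 genes outside the 9. Of these, 76 were listed, 70 at RPKM of at least 1. Of the 70, 69 held an exonic peak and 44 a deletion site, where 96.6% and 37.0% of protein-coding genes of that level did. At RPKM 100 or more, 15 of 19 held a site, near the 78.0% of all such genes. Their 146 sites lay in 3' UTRs in 138 cases. By mRNA level the first 5 were the integrin linker Tln1 (325 RPKM), the Arp2/3 regulator Coro1a (298), the membrane linker Msn (281), the monomer-binding Twf2 (245) and the crosslinker Actn4 (231). Each stood below Arpc2. By number of sites the first 5 were Msn with 15, its relative Rdx with 9, the capping subunit Capzb with 7, the pointed-end cap Tmod3 with 6 and the myosin heavy chain Myh9 with 6. Twf2 had a log2 ratio of -0.99, below that of each of the 8 actin genes, with 123 tags and no site. Srf, a transcription factor of actin genes, stood at 16.1 RPKM.

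The protein-coding genes nearest Actb in mRNA level, summed height and number of sites together were Hnrnpa2b1, Scd2 and Pabpc1. The likeness is the distance over these 3 log2 measures, each divided by its SD over 10211 genes, and it was 0.43, 0.48 and 0.52. Hnrnpa2b1 stood at 591 RPKM with 6118 tags and 17 sites, Scd2 at 470 RPKM with 3226 tags and 21 sites, and Pabpc1 at 1143 RPKM with 4385 tags and 16 sites. The region of the sites is not part of this distance. In 3' UTRs lay 17 of the Actb sites, 16 of those of Hnrnpa2b1 and 19 of those of Scd2, but only 3 of those of Pabpc1.

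As a check of the label, 13 of 14 erythroid markers were listed, 12 of them at RPKM of at least 1, with Klf1 at 428 RPKM, Epor at 225 RPKM and Gata1 at 211 RPKM. Fibroblast markers were read because the growth protocol also names a second line, NIH-3T3. Of 10 fibroblast markers 2 reached RPKM 1, Thy1 at 65.3 and Pdgfrb at 2.60, while Col1a2, Col3a1, Dcn, Lum and Postn had no entry. None of 8 myeloid and lymphoid markers exceeded 0.610 RPKM. Peak heights over the whole list ranged between 2 and 10814 tags (median 9). The RPKM scale corresponds to a total of 35251228 mRNA-seq reads, a number inferred from the RPKM themselves.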

How the data were processed

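The deposited RPKM were made by the authors, with the 2 mRNA-seq samples merged into 1 value per gene. The deposited peak list gives each peak a score, read here as its height in tags, and the deposited deletion list gives counts of deletions with a second number read as covering tags. Both pool the 3 CLIP-seq samples. Tools named in the submitters' processing notes are TopHat2 2.0.12 (mRNA-seq samples alone), Novoalign 3.02.02 (CLIP-seq samples alone), HTSeq 0.6.0 and cutadapt 1.4.2, with the build mm10. The sources used here give neither list's threshold. The RPKM were checked as whole reads on the 4946 genes whose identifier version is that of GENCODE M21. Of these, 100% of 3560 genes under 200 reads came out whole within 0.01, with 1 read in 1 kb worth 0.0284. No whole number of reads came out for Arpc1b, Arpc2, Arpc3 and Cfl1.

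Peaks (by midpoint) and sites were placed by strand on GENCODE M21 basic transcripts, 1-based, in the order 3' UTR, 5' UTR, CDS, non-coding exon, intron, with the stop codon in the CDS. The principal transcript is the annotation's APPRIS choice. Distances to the nearest downstream annotated end were counted along spliced 3' UTR. Sequences are those of GENCODE transcripts. Log2 ratios were computed from the deposited values with a pseudocount of 1. Shared words are identical 30-base words in any annotated transcript of another gene. Placement and distance were tested on random positions of single-transcript genes, so the choice between transcripts of a gene was not tested. Python 3.11.15, numpy 2.4.6, pandas 2.3.3, scipy 1.17.1 and matplotlib 3.10.9 were used.

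Named were the 9 genes, each one's tallest peak and site with the most deletions, the next run for genes with 5 or more sites, the 5 pathway genes highest in RPKM and the 5 with most sites, and the 3 genes nearest Actb. Other names were chosen after their values were seen. Members, lists and rule were chosen with earlier results of these data known. No test was made, since replicates are pooled. Alternatives are in the closing section.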

Additional observations from a re-analysis of the deposited data

How the results depend on the processing

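Of 36 alternatives to 8 results, 24 left a share within its interval or a count within 1.5 times, and 12 moved the value further. The 3' UTR share of height, 63.5%, became 64.1% with all GENCODE transcripts, 74.0% without Actb, 69.2% without Arpc2 and 80.6% with peaks over the stop codon counted as 3' UTR. As reported, the share was below that of other abundant mRNAs. It passed that share without Actb, and separately with that count, but not with both changes together. Without Actb and with that count it was 74.3%, against 78.2% in the other genes. The share of 3' UTR sites near an end fell from 47.1% to 27.5% with 50 nt as the limit. The hexamer share was 41.0% with a window of 50 nt and 16.7% with runs joined. The share deleted at A or T was 90.0% without Actb. The median log2 ratio, 2.52, became 2.53 with a pseudocount of 0.1, 1.24 with the tallest peak alone, 1.30 per kilobase of exon, where it lay above the all-gene median and not below it, and 2.59 with peaks of at least 9 tags, which leave 7 genes. The count of genes above the median ratio, 3 of 8, was 2 against protein-coding genes alone and 4 per kilobase. Leaving out Arpc2, the count of peaks over the stop codon and comparing genes of RPKM 100 or more, where 4 of 6 lay above the median, were chosen after seeing the data. No paired analysis was possible because the lists pool the replicates, and for the same reason no replicate could be left out. Depth limits sites of few tags most: the Arpc3 CDS site rests on 6 deletions in 19 tags, with an interval of 15.4% to 54.0%, and for Arpc5 and Actg1 the list shows only that no site passed the authors' threshold.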
